A study of Mus musculus with 24 samples.

Results

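Whole-kidney RNA of mice killed 7 days after ischemia was compared with that of mice killed 2 days after it. The comparison uses 6 of the 24 libraries of the study, 3 mice per day, chosen by their labels as the unbound RNA of these days, and all genes were taken. Of the 40750 genes measured, 13721 with at least 1 RPKM (reads per kilobase of gene, scaled to the depth of the library) in at least 3 libraries were tested. All mice were males aged 8 to 10 weeks on a mixed background, of the genotype Kim1-GCE+/-; EGFPL10a+/-, and all, shams included, carried both alleles. Per the series' design text the mice received tamoxifen 6 h before and 24 h after the ischemia, with no separate statement for shams. Day 2 and day 7 mice had both renal pedicles clamped for 20 min under isoflurane, and sham mice had the same surgery without the clamp. Kim1-GCE is a tamoxifen-inducible Cre under the control of Kim1 (Havcr1), a gene switched on in injured proximal tubule, and EGFPL10a tags ribosomes of the cells in which Cre acted. Ribosomes were pulled down with beads against GFP. The unbound RNA is what stayed behind, which the labels take to represent the total kidney, so RNA that the beads removed is missing from it.

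After ischemia the proximal tubule, above all its straight S3 segment in the outer medulla, loses its brush border and its transporters. Surviving epithelial cells dedifferentiate, switch on injury and stress genes, and divide, and later most of them regain the genes of a mature tubule. Leukocytes enter in waves, with neutrophils early and macrophages and lymphocytes later. In RNA from a whole kidney, fewer cells of a type and less RNA per cell cannot be told apart.

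The 6 libraries held between 15720000 and 21680000 reads, as inferred from the spacing of their low values, and their 10 most abundant genes took 19.9% to 23.4% of the RPKM. Across genes, libraries correlated at 0.962 to 0.972 within day 2 and at 0.978 to 0.979 within day 7. The tissue label fitted the defining genes. Umod of the thick ascending limb lay between 404 and 881 RPKM in the 6 libraries and Slc34a1 of the proximal tubule between 231 and 1089. Of the macrophage markers none was at 0 in all 6 libraries, and of the neutrophil markers Elane and Mpo were.

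Between day 2 and day 7, most tested cell cycle genes and several injury and detoxification genes fell, while members of the S3 segment and antigen presentation lists rose. In all 482 genes (3.51% of those tested) were called, meaning an adjusted p under 0.05 by limma with Benjamini-Hochberg adjustment. At day 7, 232 of them were higher (1.69%) and 250 lower (1.82%). These shares of all tested genes are the background for the counts of every list below. A change of at least 2-fold was seen in 203 of the higher and 225 of the lower genes, and one of at least 4-fold in 66 and 51. Over every tested gene the log2 folds had a median of 0.00 and their standard errors one of 0.30. Leaving out 1 library kept the sign of every call but not the number: 369, 127 and 304 genes were called without library 1, 2 or 3 of day 2, and 220, 124 and 166 without library 1, 2 or 3 of day 7. In all 6 of these fits 88 genes were called, 45 higher and 43 lower. The spread was estimated over all 24 libraries, and without both libraries of mouse 3 of day 14, which stood apart from the other day 14 libraries, 856 genes were called.

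**Figure D1:**
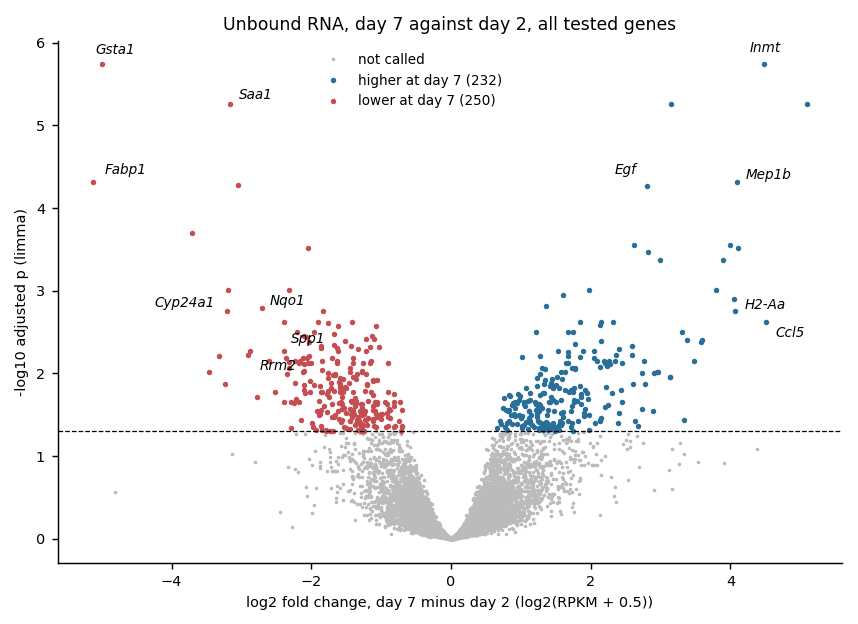
Each point is 1 of 13721 tested genes, with the log2 fold change from day 2 to day 7 on the horizontal axis and the negative log10 of the limma adjusted p on the vertical axis. The 232 genes above the dashed line at an adjusted p of 0.05 on the right and the 250 on the left are the calls. Gsta1 and Inmt had the smallest adjusted p on their sides.

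The sham libraries place these changes. Of the 250 genes that fell, 240 had been above all sham libraries in all 3 day 2 libraries. At day 7, 108 of them were still above every sham library, 122 overlapped sham and 20 were below it. Of the 232 genes that rose, 182 had been below all sham libraries at day 2 and 3 above. At day 7, 136 of the 232 overlapped the sham libraries, 28 were below and 68 were above all of them. The genes that rose thus held both levels that overlapped sham and levels that sham kidneys did not have. An overlap need not be a full return: Pvalb overlapped sham at day 7 with a log2 fold against sham of -1.57. The comparisons with sham share the day 2 and day 7 libraries, so they are given side by side and not as separate evidence. Calling genes by their difference from day 2 also favors day 2 levels away from sham. The same positions were not counted over all tested genes, so these counts have no background beside them.

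Mitotic genes were the group with the most members lower. Of 35 tested genes of G2 and M phase, 31 fell (88.6%, against 1.82% of all tested genes), none rose, and the median log2 fold was -1.71 (all tested genes 0.00). Birc5, which encodes the chromosomal passenger protein survivin, was at 29.6, 44.1 and 19.3 RPKM at day 2 and at 6.22, 4.01 and 6.03 at day 7, with 0.867 to 4.26 in sham (log2 fold -2.36, SE 0.46, adjusted p = 0.00647). Nek2, a centrosome kinase, was at 7.22, 7.21 and 3.72 RPKM at day 2 and at 1.59, 1.21 and 1.31 at day 7 (log2 fold -1.76, adjusted p = 0.00247). Bub1, a spindle checkpoint kinase, went from 2.04, 3.58 and 1.54 to 0.453, 0.318 and 0.344 RPKM (log2 fold -1.67, adjusted p = 0.00452). In each of these genes the lowest day 2 library lay above the highest day 7 library, but nearly all calls were free of overlap. The proliferation antigen Mki67 (log2 fold -1.60, adjusted p = 0.0229), the cyclin gene Ccnb1 (-1.66, 0.0104), the kinesin gene Kif2c (-2.06, 0.00647) and Foxm1 (-1.38, 0.0423), a transcription factor of the G2 phase, also fell. Cdk1, Bub1b, Kif20a and Pbk did not pass, with log2 folds from -2.09 to -0.51.

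At day 7 the median of the mitotic genes was still above sham. Single genes could overlap it: Birc5 was at 4.01 RPKM in library 2 of day 7 and at 4.26 in library 3 of sham. Against sham the median of this list was 2.97 at day 2 and 1.28 at day 7, where that of all tested genes was 0.20 and 0.18. The day 2 mice differed among themselves: library 2 was the highest of the 3 in 32 of the 35 genes and library 3 the lowest in 33. The number of mitotic genes called was 18, 3 and 30 without library 1, 2 or 3 of day 2, and 16, 7 and 11 without library 1, 2 or 3 of day 7. Nek2 and Bub1 were the members called in all 6 of these fits, and the median of the list stayed between -2.0 and -1.4.

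Promoters of the called mitotic genes are shown because these genes moved together. In late cell cycle promoters 2 short elements are known, the cell cycle genes homology region (CHR, searched as TTTGAA) and the CCAAT box bound by NF-Y. Both strands of the 300 bases from 250 before to 50 after the start in RefSeq (GRCm38.p6, the first start listed per gene) were searched, and 26 of the 31 called genes had an entry. TTTGAA was in 20 of the 26 promoters (76.9%) against 18.1% of the promoters of all 27025 genes in that table, and CCAAT in 21 (80.8%) against 37.9%. Both were in 17 of the 26, with 1 promoter in which they overlapped, and in 7.12% of all promoters. These matches describe letters, not bound sites. The last 120 bases before the start of 4 of these genes are given, with matches to TTTGAA and CCAAT, or to their reverse complements TTCAAA and ATTGG, in capitals. Cdc20 (activator of the anaphase-promoting complex, chr4:118437344-118437463, minus strand), Ube2c (its ubiquitin-conjugating enzyme, chr2:164769809-164769928, plus strand), Kif11 (the spindle motor Eg5, chr19:37376262-37376381, plus strand) and Top2a (DNA topoisomerase, chr11:99024190-99024309, minus strand) read as follows.
Cdc20: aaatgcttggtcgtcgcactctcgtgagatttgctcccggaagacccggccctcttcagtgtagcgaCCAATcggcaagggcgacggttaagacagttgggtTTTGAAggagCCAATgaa
Ube2c: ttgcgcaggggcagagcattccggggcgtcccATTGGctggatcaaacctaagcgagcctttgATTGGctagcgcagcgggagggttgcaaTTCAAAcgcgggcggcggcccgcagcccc
Kif11: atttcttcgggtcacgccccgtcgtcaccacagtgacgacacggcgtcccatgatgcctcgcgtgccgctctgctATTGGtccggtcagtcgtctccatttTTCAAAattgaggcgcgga
Top2a: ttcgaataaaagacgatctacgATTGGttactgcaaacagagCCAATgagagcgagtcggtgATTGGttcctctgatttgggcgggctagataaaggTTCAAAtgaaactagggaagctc

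The CHR letters lay between every CCAAT box and the start, except for the CCAAT box at -8 in Cdc20, and had their first base at -18 in Cdc20, -29 in Ube2c, -19 in Kif11 and -23 in Top2a. The 4 genes fell by log2 folds between 1.63 and 1.97. Cdc20 was at 27.1, 45.2 and 16.1 RPKM at day 2 and at 8.77, 5.90 and 5.37 at day 7 (log2 fold -1.97, adjusted p = 0.044). Kif11 was at 4.22, 5.63 and 2.47 RPKM at day 2 and at 0.779, 0.909 and 1.10 at day 7 (log2 fold -1.63, adjusted p = 0.00708). Neither gene had overlapping days. Kif11 lost its call without library 2 of day 2 (adjusted p = 0.0615), and the other genes lost theirs in 5 or 6 of the 6 fits that left out a library (highest adjusted p 0.229 for Cdc20, 0.154 for Ube2c and 0.234 for Top2a).

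Genes of DNA replication followed the same direction with fewer calls. Of 33 tested members 20 fell (60.6%), none rose, and the median log2 fold was -1.52. Rrm2, the small subunit of ribonucleotide reductase, was at 86.4, 85.3 and 36.1 RPKM at day 2 and at 10.7, 7.39 and 6.88 at day 7, with 1.89 to 7.71 in sham (log2 fold -2.90, SE 0.55, adjusted p = 0.00599). Ccne1, the cyclin of entry into S phase, went from 4.70, 7.43 and 2.61 to 0.846, 0.572 and 1.21 RPKM (log2 fold -1.90, adjusted p = 0.00239). Levels of the 2 days did not overlap in either gene, and both calls held without each library in turn.

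Within the replication list the helicase subunit genes Mcm2 (log2 fold -1.69, adjusted p = 0.0103) and Mcm6 (-0.90, 0.0431) fell, while Mcm3, Mcm4, Mcm5, Mcm7 and Mcm10 did not pass (-1.82 to -0.64). Against sham the list's median was 2.16 at day 2 and 0.70 at day 7. Of the 16 called members with a RefSeq promoter, TTTGAA was in 2 (12.5%), CCAAT in 9 (56.2%) and 1 of the 4 E2F strings TTTCCCGC, TTTCGCGC, TTTGCCGC and TTTGGCGC in 3 (18.8%), which 2.32% of all promoters hold. Without library 1, 2 or 3 of day 2 the list had 15, 3 and 20 calls, and without those of day 7 it had 9, 4 and 9. Mcm2 lost its call without library 2 of day 2 (adjusted p = 0.0824) and without library 2 of day 7, and Mcm6 kept its own in 1 of the 6 fits.

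Several markers of injured tubule fell from high levels. Of 32 tested, 6 fell, 1 rose, 25 did not pass, and the median log2 fold was -1.36. Spp1, which encodes the secreted matrix protein osteopontin, was at 12430, 16890 and 15170 RPKM at day 2 and at 2895, 1786 and 4270 at day 7, against 328 to 557 in sham (log2 fold -2.39, SE 0.45, adjusted p = 0.00527). Lcn2, the iron-siderophore binding protein NGAL, went from 157, 231 and 258 to 50.3, 15.8 and 34.6 RPKM, with 2.97 to 6.07 in sham (log2 fold -2.78, adjusted p = 0.0191). Krt20, an intermediate filament gene that injured tubules express, went from 35.4, 69.4 and 87.2 to 7.82, 9.84 and 24.8 RPKM (log2 fold -2.22, adjusted p = 0.0202). All 3 genes were lower in every day 7 library than in any day 2 library and remained above every sham library. Sprr2g, of the small proline-rich family of cornified epithelium, fell from 39.1, 79.8 and 53.4 to 5.26, 3.33 and 8.94 RPKM (log2 fold -3.23, adjusted p = 0.0133). Its annotated type was polymorphic pseudogene. The fibrinogen chain gene Fga and the TWEAK receptor gene Tnfrsf12a completed the falls (-1.93 and -1.44).

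Vcam1, an adhesion molecule for leukocytes, went the other way, with 2.82, 6.87 and 1.401 RPKM at day 2 and 9.39, 12.3 and 26.6 at day 7 (log2 fold 2.07, adjusted p = 0.0402). Havcr1, the gene that drives the Cre of these mice, was at 84.5, 151 and 143 RPKM at day 2 and at 38.1, 54.9 and 125 at day 7, so the days overlapped and the gene did not pass (log2 fold -0.93, SE 0.61, adjusted p = 0.522). In sham, Havcr1 was at 24.1 RPKM in 1 library and at 3.93 and 4.32 in the others. The transcription factor gene Sox9 (log2 fold -0.78, limma adjusted p = 0.503) and the cell cycle inhibitor gene Cdkn1a (-1.06, 0.316) did not pass either. The 2 days did not overlap in them, as in 31.6% of all tested genes. The list's median against sham was 2.69 at day 2 and 1.50 at day 7. Without library 1, 2 or 3 of day 2 its calls numbered 6, 2 and 3 and without those of day 7 they numbered 3, 1 and 3, with Spp1 called each time. Without mouse 3 of day 14 there were 15. Lcn2 and Krt20 each kept their call in 2 of the 6 fits, Sprr2g in 4, and Vcam1, Fga and Tnfrsf12a in 1 (highest adjusted p 0.127 for Lcn2 and 0.0846 for Sprr2g, without library 2 of day 7, and 0.22 for Vcam1, without library 3 of day 2).

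Targets of NRF2, the transcription factor that answers oxidative and electrophile stress, fell toward sham. Of 19 tested, 9 fell, none rose, and the median log2 fold was -1.0, with medians against sham of 1.16 at day 2 and 0.20 at day 7. Gsta1, a glutathione transferase, was at 30.5, 49.5 and 64.9 RPKM at day 2, at 0.736, 1.16 and 1.04 at day 7 and at 0.111 to 1.34 in sham (log2 fold -4.99, SE 0.45, adjusted p = 1.83e-06). Nqo1, a quinone reductase, went from 272, 167 and 374 to 45.9, 39.9 and 33.0 RPKM and was then below the 49.8 to 71.5 of sham (log2 fold -2.70, adjusted p = 0.00163). At day 7 Gsta1 was thus within the range of sham (log2 fold against sham 0.69) and Nqo1 was below it. Genes that supply NADPH or reduce thioredoxin fell less, with Taldo1 of the pentose phosphate pathway at 417, 460 and 440 RPKM at day 2 and 193, 191 and 215 at day 7 (log2 fold -1.14, adjusted p = 0.00354).

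Txnrd1 (-1.22), Srxn1 (-1.52) and Pgd (-1.02) fell with narrow standard errors, and Hmox1 (-1.58), Gsr (-1.07) and Gsta2 (-1.31) fell too. The glutathione synthesis genes Gclc and Gclm did not pass (both -0.54). Gsta1, Nqo1, Txnrd1, Srxn1, Taldo1 and Pgd were called in all 6 fits that left out a library; these fits gave 6 to 8 calls each. Hmox1, Gsr and Gsta2 kept theirs in 2, 3 and 1 of them. Gsta1 and Gsta2 are near copies of each other, so reads could be split between them in counting. Of 11 metal handling genes 2 fell, both metallothioneins, which bind zinc and copper. Mt2 went from 583, 949 and 1468 to 231, 138 and 203 RPKM (log2 fold -2.32, adjusted p = 0.00854, but 0.0641 without library 2 of day 7), and Mt1 had a log2 fold of -1.60 (adjusted p = 0.035, and called only without library 1 of day 2 among the 6 fits). The acute-phase genes Lrg1 (log2 fold -3.71, adjusted p = 0.000197) and Saa1 (-3.16, 5.56e-06) fell, with Saa1 at 12.3, 5.89 and 9.79 RPKM at day 2 and at 0.310, 0.458 and 1.01 at day 7.

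**Figure D2:**
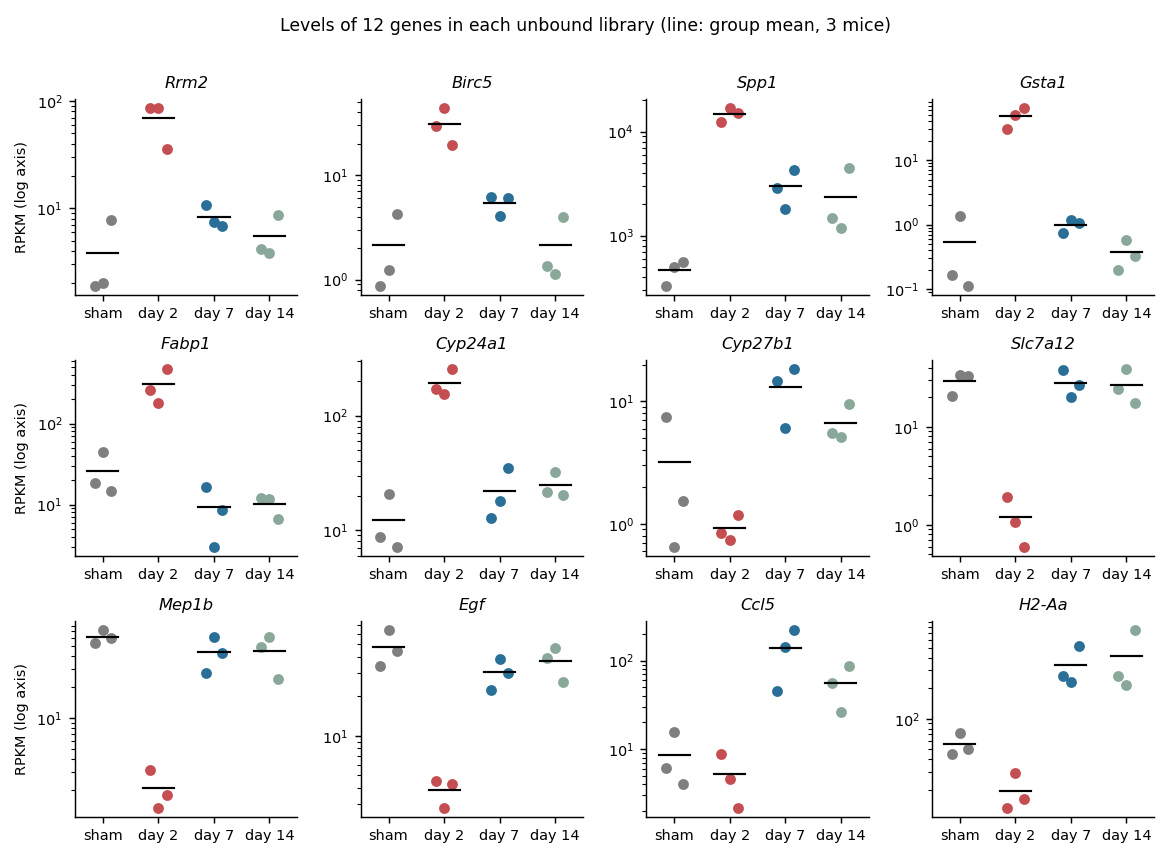
RPKM on a log axis of 12 genes in the 12 unbound libraries of the sham group and of the 3 days after ischemia, with a point per mouse and a line at the mean of 3. Rrm2, Birc5, Spp1, Gsta1, Fabp1 and Cyp24a1 were highest at day 2, and Cyp27b1, Slc7a12, Mep1b, Egf, Ccl5 and H2-Aa were lowest or nearly lowest then.

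The gene with the largest fall was Fabp1, a carrier of fatty acids. It was at 261, 180.4 and 475 RPKM at day 2 and at 16.5, 3.00 and 8.52 at day 7, against 14.9 to 44.3 in sham (log2 fold -5.12, SE 0.59, adjusted p = 4.76e-05). Apoc2, the cofactor of lipoprotein lipase, went from 25.2, 58.1 and 68.3 to 3.22, 3.81 and 4.34 RPKM, where sham had at most 0.333 (log2 fold -3.46, adjusted p = 0.00951, but 0.0588 without library 2 of day 2).

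The fatty acid oxidation list as a whole was split. Of 34 tested members 4 fell and 2 rose, with a median of -0.35. Slc25a20, the carnitine carrier of the mitochondrial membrane, fell from 88.8, 82.5 and 102 to 54.9, 36.7 and 37.1 RPKM (log2 fold -1.10, adjusted p = 0.00384), and its call held without each library. Pdk4 (-1.56), which blocks pyruvate entry into mitochondria, and the peroxisomal thiolase gene Acaa1b (-1.50) fell. The acyl-CoA synthetase genes Acsm3 (2.45) and Acsm2 (1.23) rose. The entry enzyme Cpt1a (-0.50), the regulator Ppara (-0.72) and Acadm (0.45) did not pass. The number of calls was 4, 3 and 2 without library 1, 2 or 3 of day 2 and 3, 1 and 3 without those of day 7. Pdk4, Acaa1b, Acsm3 and Acsm2 each lost their call in at least 4 of the 6 fits (highest adjusted p 0.122, 0.218, 0.129 and 0.182).

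Genes of the S3 segment and genes that depend on androgen in the male mouse kidney had the highest medians of the 43 lists. Of 13 tested S3 markers 8 rose (61.5%, against 1.69% of all tested genes), none fell, and the median log2 fold was 1.98. Of 18 androgen and segment-specific enzymes 9 rose and none fell, with a median of 1.86; 6 genes stand on both lists. Slc7a12, an amino acid transporter, was at 1.94, 1.06 and 0.596 RPKM at day 2 and at 37.6, 20.0 and 26.6 at day 7, around the 20.6 to 33.9 of sham (log2 fold 4.11, SE 0.56, adjusted p = 0.000306). Cyp7b1, the oxysterol hydroxylase, went from 1.55, 2.52 and 1.66 to 18.4, 60.5 and 46.5 RPKM (log2 fold 3.99, adjusted p = 0.000275). Akr1c18, a steroid dehydrogenase, went from 5.18, 6.59 and 5.21 to 44.2, 109 and 123 RPKM, against 83.0 to 409 in sham (log2 fold 3.79, adjusted p = 0.000965). These 3 genes were called in all 6 fits without a library, and in each of them every day 7 library was higher than any day 2 library.

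Other S3 genes were more uneven between mice. Slc7a13, a transporter of acidic amino acids, was at 45.3, 9.59 and 17.2 RPKM at day 2 and at 148, 185 and 138 at day 7, against 192 to 341 in sham (log2 fold 2.95, adjusted p = 0.00951). Slc22a7, an organic anion transporter, was at 4.01, 2.60 and 6.78 RPKM at day 2 and at 20.6, 81.5 and 80.6 at day 7 (log2 fold 3.48, adjusted p = 0.007). Kap, the androgen-regulated kidney protein and the most abundant of these transcripts, was at 6969, 6188 and 13500 RPKM at day 2 and at 22070, 35120 and 21010 at day 7, and did not pass (log2 fold 1.60, SE 0.59, adjusted p = 0.161). Day 7 of Kap overlapped the 12590 to 26860 of sham. Against sham the S3 median was -2.14 at day 2 and -0.25 at day 7. Calls among S3 genes numbered 7, 2 and 6 without library 1, 2 or 3 of day 2 and 6, 2 and 5 without those of day 7; among the androgen list they numbered 8, 3 and 7 and then 6, 3 and 5. Slc7a13 and Slc22a7 lost their calls without library 2 of either day (highest adjusted p 0.0778 and 0.0544). The gene Inmt, a methyltransferase on neither list, had the third largest rise of all called genes, from 19.9, 13.9 and 9.96 to 332, 394 and 263 RPKM (log2 fold 4.49, SE 0.40, adjusted p = 1.83e-06), where sham had 135 to 266.

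The transport and brush border lists of the proximal tubule had lower medians than the S3 list. They are not confined to the earlier segments, and Slc5a1 and Aqp1 stand on both the transport and the S3 list. Of 30 transport genes 2 rose and 1 fell, with a median of 0.47. Slc34a1, the main sodium-phosphate cotransporter, was at 572, 235 and 231 RPKM at day 2 and at 1089, 1082 and 1027 at day 7, against 1256 to 1466 in sham (log2 fold 1.76, adjusted p = 0.015). Its relative Slc34a3 went from 6.56, 0.917 and 1.17 to 17.2, 13.6 and 14.2 RPKM (log2 fold 2.59, adjusted p = 0.00595). In both genes every day 7 library was above every day 2 library, and library 1 of day 2 was the highest of its group in each. Abcc2, an efflux pump for conjugates, fell from 30.7, 28.9 and 44.2 to 15.2, 12.3 and 11.4 RPKM (log2 fold -1.36, adjusted p = 0.0115). The glucose carrier Slc5a2 (log2 fold 0.97, adjusted p = 0.228), the endocytic receptor Lrp2 (0.54, 0.498) and the organic anion carrier Slc22a6 (-0.08) did not pass.

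Among 13 brush border peptidases 4 rose and none fell. Mep1b, the beta subunit of meprin, was at 3.14, 1.33 and 1.79 RPKM at day 2 and at 27.5, 62.2 and 42.8 at day 7, against 53.6 to 72.8 in sham (log2 fold 4.09, SE 0.48, adjusted p = 4.89e-05), whereas Mep1a, the alpha subunit, went from 89.6, 47.7 and 86.2 to 165, 200 and 175 RPKM (log2 fold 1.32, adjusted p = 0.0478). The partner subunits thus differed in the size of the fitted change. The dipeptidase gene Dpep1 (1.84) and the trehalase gene Treh (1.37) also rose, while Anpep, Dpp4, Mme and Enpep had log2 folds between -0.15 and 0.39. Slc34a1 kept its call in 1 of the 6 fits without a library (highest adjusted p 0.0964, without library 2 of day 2), Mep1a and Treh in none (0.255 and 0.155). Slc34a3 and Dpep1 lost theirs without library 2 of day 2 (0.0517 and 0.0537), and Abcc2 without library 3 of day 2 (0.0646) or libraries 2 and 3 of day 7. Mep1b was called in all of them. The transport list had 3, 1 and 1 calls without library 1, 2 or 3 of day 2 and 2, 1 and 1 without those of day 7, and the brush border list 2, 1 and 2 and then 2, 2 and 2. Slc34a1 was also the single call among 12 genes of the S1 and S2 segments (median 0.59).

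The vitamin D enzyme genes Cyp24a1 and Cyp27b1 moved in opposite directions. Cyp24a1, which inactivates vitamin D, fell from 171, 156 and 256 to 12.8, 17.9 and 34.9 RPKM, with 7.15 to 20.7 in sham (log2 fold -3.21, SE 0.52, adjusted p = 0.00173). Cyp27b1, which makes the active hormone, was at 0.835, 0.741 and 1.19 RPKM at day 2 and at 14.7, 6.04 and 18.4 at day 7, with 0.646 to 7.42 in sham (log2 fold 3.13, SE 0.67, adjusted p = 0.0109). Kl, the co-receptor for FGF23, rose from 27.6, 16.3 and 22.0 to 51.0, 65.2 and 47.1 RPKM (log2 fold 1.31, limma adjusted p = 0.00848). It stands on the proximal metabolism list, but the segment its RNA came from was not tested. No day 7 library of these 3 genes overlapped day 2. The call of Cyp24a1 held without each library, Kl was lost without library 2 of day 2 (adjusted p = 0.0704) or of day 7, and Cyp27b1 without library 2 of day 2 (0.0603) and without libraries 1 and 3 of day 7. The amino acid enzyme genes Aadat (1.92) and Asl (1.17) rose as well, so that 4 of the 30 proximal metabolism genes rose and 1 fell (median 0.91); that number was 7, 1 and 5 in all without library 1, 2 or 3 of day 2 and 3, 2 and 2 without those of day 7.

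The calbindin genes S100g and Calb1 of the distal tubule went above sham. S100g, which encodes calbindin-D9k, was at 812, 695 and 1364 RPKM at day 2 and at 3722, 4851 and 3744 at day 7, while sham had 990.1 to 1193 (log2 fold 2.15, SE 0.36, adjusted p = 0.00241). Calb1, calbindin-D28k, was at 30.2, 25.5 and 28.1 RPKM at day 2 and at 128, 190 and 115 at day 7, while sham had 61.0 to 96.3 (log2 fold 2.31, SE 0.39, adjusted p = 0.00241). In both genes all 3 day 7 libraries lay above all sham and all day 2 libraries. Pvalb, a marker of the early distal convoluted tubule, also rose (log2 fold 2.96, adjusted p = 0.00951) but stayed at 6.40 to 30.5 RPKM, against 21.0 to 107 in sham. The other 13 distal convoluted tubule genes did not pass, among them the sodium-chloride cotransporter Slc12a3 (0.75) and the calcium channel Trpv5 (0.56).

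Egf, made by the thick ascending limb and the distal convoluted tubule, rose from 4.56, 2.82 and 4.29 to 22.5, 38.8 and 30.2 RPKM, with 33.9 to 64.3 in sham (log2 fold 2.81, SE 0.33, adjusted p = 5.46e-05). Ppp1r1b, the phosphatase inhibitor DARPP-32, rose by a log2 fold of 1.43 (adjusted p = 0.0129). The 12 other thick ascending limb genes did not pass, Umod included (log2 fold 0.61, adjusted p = 0.441). In the collecting duct, none of 13 principal cell genes was called and 1 of 14 intercalated cell genes, the transcription factor Hmx2 (log2 fold 1.22, adjusted p = 0.0233). S100g, Calb1 and Egf were called in all 6 fits without a library. Pvalb was lost without library 2 of day 2 (adjusted p = 0.0786) and without libraries 2 and 3 of day 7, Ppp1r1b without library 2 of day 2 or day 7 (highest 0.0933), and Hmx2 kept its call in 1 fit (highest 0.154, without library 3 of day 2).

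Class II genes of the major histocompatibility complex, which present peptides to helper T cells, rose to levels above sham. Of 14 antigen presentation genes 6 rose, none fell, and the median log2 fold was 1.64; the median against sham was -0.12 at day 2 and 1.93 at day 7. Cd74, the invariant chain, was at 90.2, 127 and 67.4 RPKM at day 2 and at 1117, 955 and 2414 at day 7, where sham had 218 to 347 (log2 fold 3.90, SE 0.55, adjusted p = 0.000429). H2-Aa, a class II alpha chain, was at 13.2, 29.2 and 16.1 RPKM at day 2 and at 264, 232 and 524 at day 7, where sham had 45.1 to 73.0 (log2 fold 4.07, SE 0.65, adjusted p = 0.00173). Day 2 was below sham and day 7 above it in every library of both genes. H2-Eb1 (3.59), H2-Ab1 (3.30), H2-DMb2 (2.20) and H2-DMa (2.13) rose too. The class II activator Ciita (1.59, adjusted p = 0.136) and the class I genes H2-K1 (0.74), H2-D1 (0.58) and B2m (0.85) did not pass. Library 3 of day 7 was the highest of its group in 13 of the 14 genes and library 2 the lowest in 12.

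Leaving out each of the libraries of either day gave 4 or 5 calls in this list, the lowest without library 3 of day 7, and leaving out mouse 3 of day 14 gave 10. H2-DMb2 lost its call without library 3 of day 7 (adjusted p = 0.0517) and H2-DMa in all 6 fits. Of the 6 called genes 4 had a RefSeq promoter and 3 of these held CCAAT, as 37.9% of all promoters do. In class II promoters a CCAAT box is known as the Y box, but a match of letters need not be that element. Each CCAAT match is in capitals in the last 120 bases before the start of H2-Aa (chr17:34287824-34287943, minus strand) and H2-Eb1 (chr17:34305747-34305866, plus strand). H2-Eb1 has 2 matches. These genes are shown because they have the largest rise among those with a RefSeq promoter.
H2-Aa: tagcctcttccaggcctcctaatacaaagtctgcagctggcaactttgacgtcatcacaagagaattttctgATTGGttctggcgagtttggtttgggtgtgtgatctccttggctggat
H2-Eb1: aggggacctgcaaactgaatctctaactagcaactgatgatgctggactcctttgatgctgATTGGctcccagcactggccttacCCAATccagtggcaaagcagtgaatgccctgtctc

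Chemokine genes moved one by one. Ccl5, which attracts T cells and monocytes, had the largest rise of the list, from 8.75, 4.64 and 2.16 to 45.3, 144 and 224 RPKM, with 4.05 to 15.7 in sham (log2 fold 4.51, SE 0.75, adjusted p = 0.00241). Ubd, a ubiquitin-like modifier induced by cytokines, rose from 10.4, 15.4 and 5.97 to 30.4, 78.9 and 141 RPKM (log2 fold 2.76, adjusted p = 0.00711). Ccl20, which attracts CCR6-bearing cells, fell from 18.7, 14.7 and 3.44 to 1.58, 1.53 and 2.07 RPKM (log2 fold -2.24, adjusted p = 0.0229). In all 3 genes the days did not overlap. Ccl2, the monocyte chemokine, was at 14.5, 22.6 and 5.95 RPKM at day 2 and 20.3, 61.1 and 116 at day 7 and did not pass (log2 fold 2.02, SE 0.70, adjusted p = 0.128). With Vcam1, 3 of 27 genes of this list rose and 1 fell.

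All 25 interferon-stimulated genes tested had a positive log2 fold (median 0.73), against 6912 of the 13721 genes tested. Only 3 of them were called (12%, against 1.69% of all tested genes called higher): Irf7, Oas1a and Mx1. Irf7, a master factor of the response, was at 4.96, 5.94 and 4.39 RPKM at day 2 and at 23.4, 15.3 and 26.5 at day 7 (log2 fold 1.96, adjusted p = 0.0203). Library 3 of day 7 was the highest of its group in 22 of the 25 genes. Complement genes had 0 calls by limma among 16, with 7 at an unadjusted p under 0.05 (median 0.76), and the macrophage-derived C1qa, C1qb and C1qc had log2 folds of 1.53 to 1.85. Ubd lost its call without library 3 of day 7 (adjusted p = 0.0537) and Ccl20 kept its own only without library 3 of day 2; the chemokine list had between 1 and 3 calls in these fits. Of the interferon genes Irf7 kept its call without library 2 of day 7, and neither it nor Oas1a or Mx1 did without any of the other 5 libraries. Without mouse 3 of day 14 the interferon list had 7 calls, and the complement list had 7 as well.

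Markers of leukocytes were summed beside these genes. The summed RPKM of 24 macrophage markers was 272, 434 and 225 at day 2 and 734, 598 and 1298 at day 7, against 104 to 164 in sham. That of 23 lymphocyte markers was 16.2, 19.9 and 11.2 at day 2 and 66.5, 62.0 and 121 at day 7. Sham had 29.7 to 87.1, so the lymphocyte sum was below sham at day 2 and overlapped it at day 7. That of 15 neutrophil markers was 98.3, 290.5 and 273 at day 2 and 21.2, 71.0 and 76.4 at day 7. Sham had 15.7 to 61.6, so the neutrophil sum was above sham at day 2 and overlapped it at day 7. The macrophage and lymphocyte sums were higher and the neutrophil sum lower in every day 7 library than in any day 2 library. Single markers passed the test rarely. Of 23 tested macrophage genes none rose and Chil3, a chitinase-like protein of alternatively activated macrophages, fell from 4.49, 6.12 and 8.79 to 0.287, 0.791 and 0.0340 RPKM (log2 fold -3.05, SE 0.36, adjusted p = 5.24e-05). Arg1, of the same activation state, did not pass (log2 fold -3.14, adjusted p = 0.0938), while Adgre1, the marker F4/80, was at 0.888, 1.02 and 0.771 RPKM and then at 4.96, 3.50 and 7.29 (log2 fold 2.0, adjusted p = 0.0699).

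The median of the macrophage list was 1.41. The immunoglobulin heavy chain gene Ighm was the only lymphocyte gene of 12 called (log2 fold 2.89, adjusted p = 0.0288, and above 0.05 in each of the 6 fits without a library), and none of 7 neutrophil genes was (median -1.38; limma, 3 at an unadjusted p under 0.05). Of 6 dendritic cell genes none was called either (median 0.73; 2 at an unadjusted p under 0.05). Without mouse 3 of day 14, whose unbound macrophage sum of 2650 was above all other libraries, 14 macrophage genes and 5 lymphocyte genes were called. The macrophage and lymphocyte sums were higher at day 7, as were the class II genes and Ccl5, and their part in those results was not tested. Sums of 18 endothelial markers (90.7 to 118 at day 2 and 103 to 126 at day 7) and of 13 podocyte markers (50.6 to 64.8 and 53.1 to 59.0) overlapped between the days. Sums for S1 and S2 segments (879 to 1699, then 2406 to 3147) and for S3 (6317 to 13720, then 21610 to 35850) did not. Most of the S3 sum in each of these libraries was the single transcript Kap, which was not called.

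**Figure D3:**
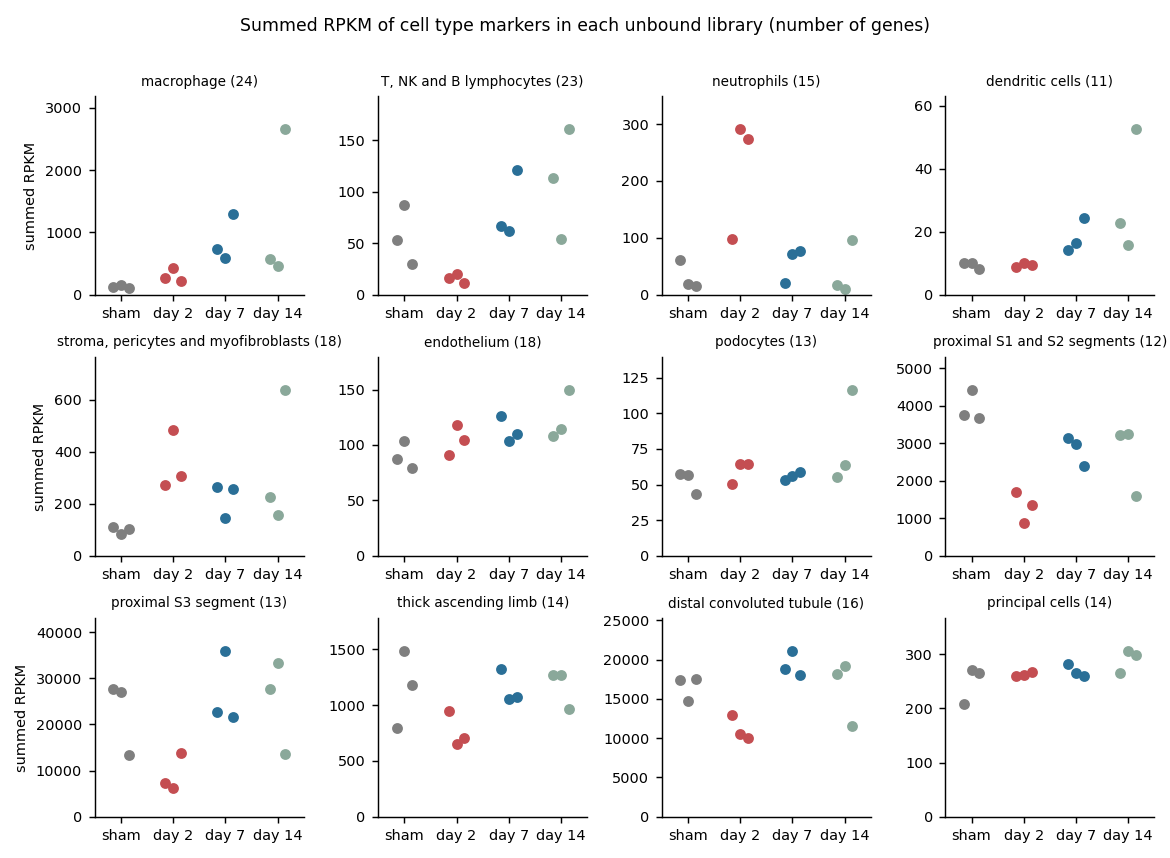
Summed RPKM of the markers of 12 cell types or segments in each unbound library, each axis from 0, with a point per mouse. The macrophage, lymphocyte, dendritic cell, S1 and S2, S3, thick ascending limb and distal convoluted tubule sums were higher in all day 7 than in all day 2 libraries, and the neutrophil and stromal sums were lower. Kap made most of the S3 sum and Umod most of the thick ascending limb sum at both days, and neither gene was called.

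Few matrix genes passed. Of 32 tested, Mmp2, a gelatinase, rose (0.980, 0.607 and 0.703 RPKM, then 7.83, 3.99 and 7.04, log2 fold 2.39, adjusted p = 0.0402) and Ctgf, a matricellular growth factor, fell (9.44, 15.8 and 21.6 RPKM, then 3.41, 3.31 and 3.37, log2 fold -1.99, adjusted p = 0.0394). The median was 0.08, and against sham it was 1.56 at day 2 and 1.52 at day 7. Col1a1 was at 44.5, 62.0 and 29.2 RPKM at day 2 and at 49.7, 24.5 and 29.9 at day 7, with 1.79 to 3.25 in sham (log2 fold -0.38, adjusted p = 0.888). Acta2, the smooth muscle actin of myofibroblasts, was at 74.0, 130.5 and 81.5 RPKM and then at 46.2, 28.6 and 49.0, and did not pass (log2 fold -1.19, adjusted p = 0.314). No gene of the 16 tested stromal, pericyte and myofibroblast markers was called by limma, with 1 at an unadjusted p under 0.05 (median log2 fold -0.34, 4 positive). Their summed RPKM was 272, 485 and 307 at day 2 and 264, 146 and 257 at day 7, so it was lower in every day 7 library. Mmp2 lost its call in each of the 6 fits without a library (highest adjusted p 0.145) and Ctgf in all but the one without library 1 of day 2 (0.173).

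Several stress and housekeeping lists had few calls or none. The p53 list had 1 in 22 (Gdf15, a stress hormone, log2 fold -1.38, adjusted p = 0.0245) and the AP-1 list 1 in 18 (Fosl1, -1.92, 0.0288); both lost their call in 5 of the 6 fits without a library (highest adjusted p 0.122 and 0.177). The EGFR and YAP list had 3 in 19, which are Egf, Ctgf and Birc5. By limma none was called among 19 glycolysis, 21 unfolded protein response, 15 heat shock, 27 cytosolic ribosomal protein, 25 ribosome biogenesis, 31 oxidative phosphorylation, 17 circadian, 20 nephron development and 7 mitochondrially encoded genes, nor among 16 endothelial, 16 stromal, 12 podocyte, 13 principal cell, 7 erythroid and 4 muscle or fat genes. Together with the complement, neutrophil and dendritic cell lists these were 18 lists with 279 entries, of which 36 had an unadjusted p under 0.05. That share was no higher than over all tested genes, where 2151 of 13721 had one. Medians of the first 9 of these lists lay between -0.30 (ribosome biogenesis) and 0.52 (mitochondrially encoded); those of nephron development and the circadian clock were within 0.01 of 0 and changed sign under median-ratio rescaling. Of 19 cholesterol synthesis genes Cyp51, the lanosterol demethylase, alone was called (log2 fold 2.05, adjusted p = 0.00647, but 0.0561 without library 2 of day 7).

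**Figure D4:**
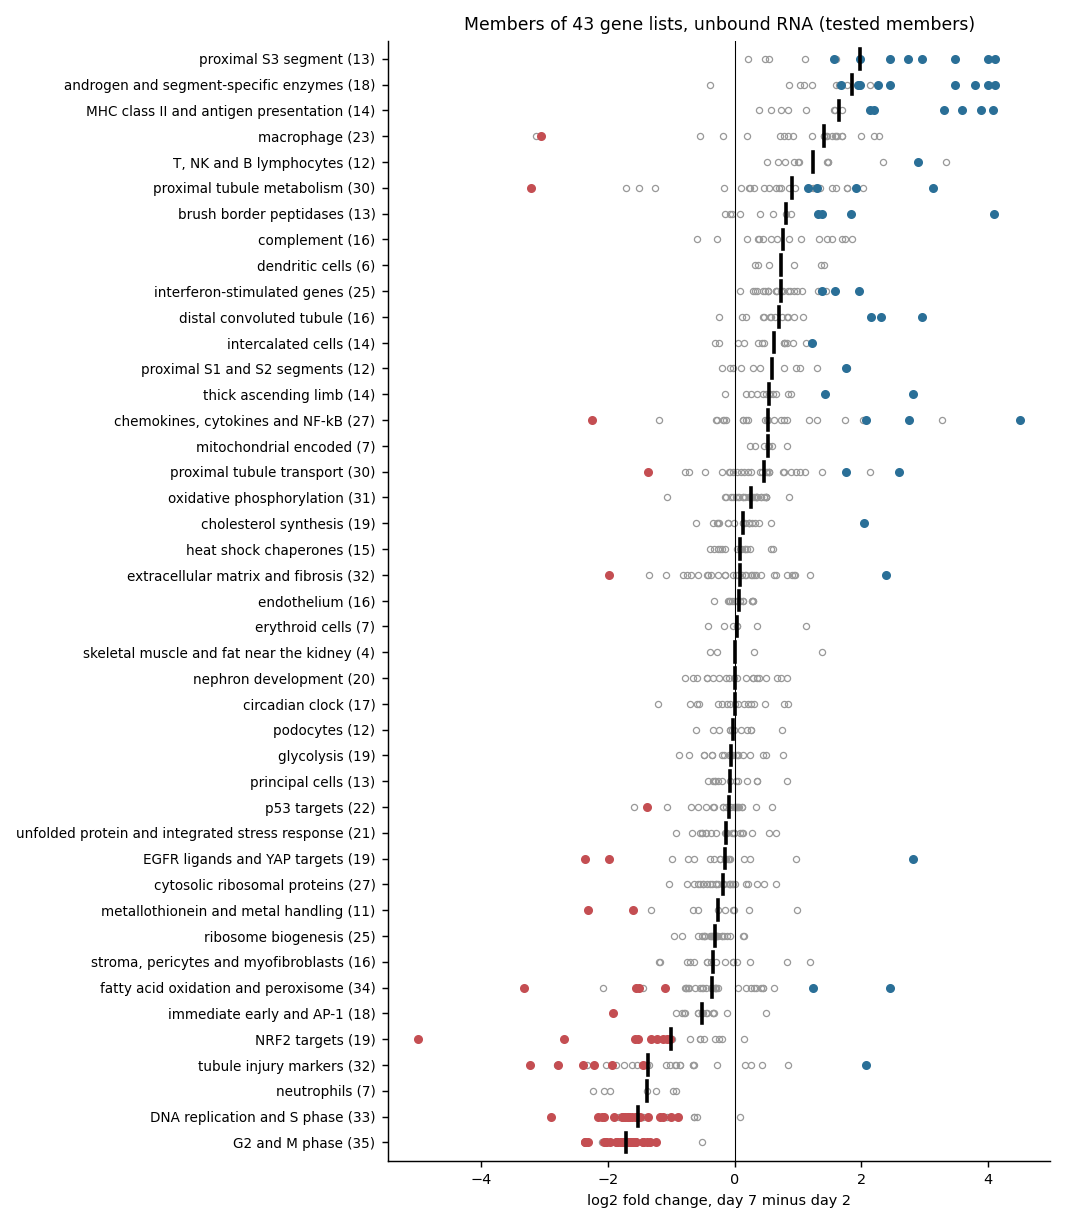
Each circle is the log2 fold change of 1 tested list member from day 2 to day 7 in unbound RNA, filled blue where it rose, filled red where it fell and open where it did not pass; a black bar marks the median of a list, and the number of tested members follows its name. The S3, androgen and class II lists have the highest medians, and the G2 and M phase and replication lists the lowest.

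**Figure D5:**
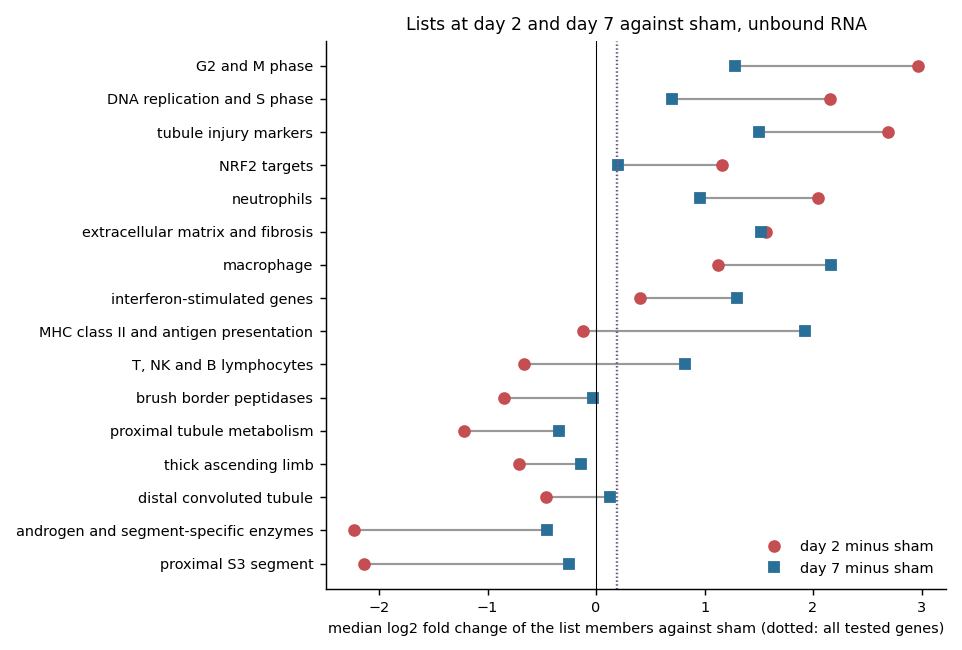
Medians of 16 lists against sham, with a circle for day 2, a square for day 7, and dotted lines for all tested genes. The cell cycle and injury medians moved toward 0 without reaching it, the S3 median went from -2.14 to -0.25, and the class II median went from -0.12 to 1.93.

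The bound RNA of the same mice, enriched for ribosomes of Kim1-marked cells, was compared to see where the unbound change differs. A test of the difference between the 2 changes called 0 of 13721 genes (0%; limma, smallest adjusted p 0.995), with 451 genes at an unadjusted p under 0.05. With the mouse as a block, since both fractions come from the same kidney homogenate, 0 genes were called and 1288 had an unadjusted p under 0.05 (smallest adjusted p 0.259). The median standard error of this difference was 0.43, against 0.30 for the change in unbound RNA alone. Side by side, the log2 folds in unbound and bound RNA were -1.71 and -2.13 for the G2 and M median, 1.98 and 2.40 for the S3 median and 1.64 and 1.60 for the antigen presentation median. Other lists had medians of opposite sign in unbound and bound RNA. Examples are the thick ascending limb (0.55 and -0.47), intercalated cell (0.62 and -0.41) and mitochondrially encoded (0.52 and -0.53) lists. These differences of medians were not tested. For single genes the log2 folds were -2.39 and -1.14 for Spp1, 1.31 and 0.42 for Kl, 2.31 and 0.81 for Calb1, and 4.51 and 5.22 for Ccl5.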

How the data were processed

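RPKM values were deposited by the authors in 1 table with a column for each library. Per the submitters' processing notes, the authors aligned reads with STAR 2.0.4b, counted them with featureCounts 1.4.5 of Subread and used edgeR; the genome build and the strand setting are not given in the sources used here. Of 41831 lines, 1081 repeated a gene with identical values and were dropped. Depth was inferred from the spacing of low RPKM values with GENCODE M21 exon lengths: 75.7% to 76.9% of values up to 50 reads were whole within 0.02 reads.

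The means of 8 groups (3 mice each, biological replicates per the labels) were fitted with limma 3.58.1 in R 4.3.3 to log2 (RPKM + 0.5) of all 24 libraries, with a variance trend and no block. Log2 folds therefore understate changes of low genes. P values were adjusted by Benjamini-Hochberg over 13721 genes (at least 1 RPKM in 3 libraries) and called at 0.05. In a simulation of this comparison on 13721 genes, with 200 planted changes, 35% of 2-fold and 78% of 4-fold changes were recovered with 5 false calls. Library numbers did not pair day 2 with day 7 (r of deviations 0.04, -0.20 and -0.17), whereas bound and unbound RNA of a mouse correlated at 0.27 to 0.43.

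Named genes are the 12 largest rises and falls among calls with at least 5 RPKM and no overlap of days, up to 4 called members of each of 43 lists, and 27 fixed genes; further members serve as examples. Gene models without a name were passed over; not every gene so selected is described, and some items are not reported here. The comparison, the lists and the rule were chosen with earlier results of these data known. No set test was made: lists are described by counts and medians. Alternatives were other pseudocounts (0.1 and 1), filters, scalings, library sets, a replicate block, no variance trend and leaving out each library.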

Additional observations from a re-analysis of the deposited data

How the results depend on the processing

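The number of called genes, 482, came to 1019 with the 12 unbound libraries alone, 1098 with the 6 libraries alone and, in an alternative chosen after seeing the data, 856 without both day 14 libraries of mouse 3; in each case fewer libraries shared the estimate of the spread, and the cause was not tested. Leaving out 1 library gave 124 to 369. Under the other settings it ranged from 371 (no filter) to 620 (quantile normalization), with 40.0% to 57.8% of the calls higher against 48.1%. With a replicate block on the library number, which did not pair the days, it was 586, and of the day 2 libraries the first alone correlated best with its own number at day 7. The difference between fractions had 0 calls by limma under every setting except 5 with no filter, an alternative chosen after seeing the data; its cause was not tested. Of 74 named called genes none changed sign, and 55 were called under every setting that kept all 6 libraries. Signs changed for genes not called: leaving out 1 library moved the log2 fold of Aqp2 between -0.62 and 0.10 (without day 2 library 3), and that of Pdgfrb between -0.14 and 0.18 (without day 2 library 2), with 0.09 without day 7 library 2. Of 731 list medians recomputed, 3 moved by at least the median standard error of the single genes of their list. That is a wide margin for a median over many genes. In the simulation 35% of 2-fold changes were recovered, so a gene that did not pass may still differ by that much. Genes with near copies (Gsta1 and Gsta2, Sprr2, Akr1c and Slc22a genes) may share reads.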

Other observations

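Genes outside the lists are given here as chosen after their values were seen. Plin2, which coats lipid droplets, went from 84.6, 144 and 127 to 31.6, 24.6 and 40.2 RPKM (log2 fold -1.86, limma adjusted p = 0.00497), and Acsl4, an acyl-CoA synthetase for arachidonate, went from 47.3, 47.6 and 79.5 to 13.6, 11.5 and 15.0 RPKM, within the 10.8 to 16.8 of sham (log2 fold -2.04, adjusted p = 0.000306). The ketone body oxidation genes Oxct1 (log2 fold 1.45, adjusted p = 0.0137) and Bdh1 (1.68, 0.00553) rose, Oxct1 from 212, 217 and 212 to 481, 807 and 517 RPKM. The aldehyde and carbonyl enzymes Aldh1a7 (-2.38), Aldh1a1 (-2.0), Cbr3 (-2.02) and Cbr1 (-1.58) fell, as did the microsomal glutathione transferase Mgst1 (-2.10). Oxct1 lost its call without library 2 of day 2 or day 7 (highest adjusted p 0.105), Aldh1a1 without library 2 of day 7 (0.0641), and Cbr1 and Cbr3 in 4 and 3 of the 6 fits without a library.

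Some kinetochore genes outside the lists serve as examples. Cenph was at 6.21, 11.98 and 6.12 RPKM at day 2 and at 1.31, 1.06 and 1.09 at day 7 (log2 fold -2.32, adjusted p = 0.000965), and Cenpk (-1.96, 0.00315) and Spc25 (-1.44, 0.00466) fell too. Examples of lysosomal genes that rose are the galactosidase Glb1 (0.94, adjusted p = 0.023), the protective protein Ctsa (0.89, 0.0227), the cholesterol carrier Npc2 (0.92, 0.0262) and the protease Ctsf (1.11, 0.0288), none of them called in more than 2 of the 6 fits without a library (highest adjusted p 0.112 to 0.16). Ptgds, a prostaglandin D synthase, rose from 4.38, 6.02 and 2.63 to 22.1, 27.0 and 56.0 RPKM, above the 6.66 to 13.5 of sham (log2 fold 2.82, adjusted p = 0.000343). The small RNA gene Mir6358 was listed at 0 in all sham and day 2 unbound libraries and at 7.90, 21.5 and 26.3 RPKM at day 7; at so short a gene 1 RPKM stands for few reads.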
